A study of Mus musculus with 6 samples.

Results

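The genes described here carry glucose into the cell, break it down to pyruvate and lactate, and steer pyruvate into or away from the mitochondrion. They were 37 named genes of glucose uptake, glycolysis, lactate export, the pyruvate dehydrogenase complex and its kinases, and the pentose phosphate branch. A probe set, the group of short probes that reads 1 transcript, belonged to them if its single platform gene symbol was one of these names. This gave 33 of the 18194 genes named on the array, read by 75 of its 45101 probe sets. The genes Gpi1, Pfkfb1, Eno1 and G6pdx had no such probe set and were not analysed here.

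The samples were 6 pools of mouse cumulus-oocyte complexes, labelled wild type, each on 1 Affymetrix array. A complex is the oocyte with the cumulus cells, a specialised type of granulosa cell, that surround it. The mice were immature females, primed for 48 h with eCG (equine chorionic gonadotropin), which makes follicles grow. One group of 2 arrays had no hCG (human chorionic gonadotropin, the ovulatory signal), and the other groups, also of 2 arrays, were taken 8 h and 16 h after it. The labels name no strain and no age beyond immature. Per the labels' protocols, needle puncture took the complexes without hCG out of ovaries and the 8 h and 16 h complexes out of oviducts. With these labels, hormone and place of collection cannot be told apart. The summed oviduct epithelium markers, given below, were lower at 8 h than without hCG and highest at 16 h. Whether the 8 h complexes came from oviducts was not tested. The labels describe the complexes without hCG as expanded, although they had received no hCG, and this wording is not explained there. They do not say that the pools of a group came from separate animals, so the p-values measure the spread between these samples, which may be technical.

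Glycolysis splits glucose into pyruvate, and its pace is set largely by hexokinase and phosphofructokinase. Pyruvate is then either reduced to lactate, which leaves the cell through monocarboxylate transporters, or oxidised by the pyruvate dehydrogenase complex, which pyruvate dehydrogenase kinases switch off. The division of labour in the follicle is well known: the mouse oocyte uses glucose poorly and depends on pyruvate that cumulus cells make for it. Cumulus cells also send glucose into the hexosamine route for the matrix that forms after the ovulatory signal, and into the pentose phosphate branch, which yields NADPH and ribose.

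Values are log2 intensities as deposited, and changes are differences of log2 group means ± SE from a limma fit, with n = 2 arrays per group. Changes with an adjusted p under 0.05 are called, and only these are said to rise or fall. Probe sets averaging below 5.62, the 40th percentile of these averages, counted as too dim and were not tested. That left 31 of the 33 genes. Pdk2, a pyruvate dehydrogenase kinase, was too dim, with values between 5.45 and 5.79. Gapdh, the glyceraldehyde phosphate dehydrogenase, was represented by array control probe sets alone, and its 3′ control lay between 13.99 and 14.32 in the 6 arrays. The gap between the 3′ and 5′ ends of that transcript, a sign of RNA quality, was 1.44 and 1.17 without hCG, 1.40 and 1.44 at 8 h, and 1.37 and 1.31 at 16 h. The range without hCG overlapped both later groups, whereas both 16 h gaps were below both 8 h gaps. For the beta-actin control the gaps were 1.09 and 0.91, then 0.91 and 1.02, then 0.97 in both 16 h arrays. There the 16 h gaps lay within the 8 h range. The part of such gaps in the changes from 8 h to 16 h was not tested.

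The pools hold several cell types, and a fall of a transcript can mean fewer cells of a type or less RNA per cell, which cannot be told apart. All 16 tested oocyte markers fell at 8 h, and from 8 h to 16 h 5 of them rose (Gdf9, Bmp15, Oosp1, Mos and Tcl1) and 6 fell. The summed linear intensity of the list (17 genes with a probe set) lay between 59900 and 71700 without hCG, 13600 and 14900 at 8 h, and 18000 and 21100 at 16 h. Of its genes, Ddx4 was under the dim limit at both later times. Granulosa and cumulus markers (9 of 10 with a probe set) summed to between 54900 and 59400, 36700 and 47500, and 24400 and 26700, in the same order. They did not move alike: at 8 h Has2, Ptx3 and Tnfaip6 rose, and Fshr, Foxl2 and Inhbb fell. From 8 h to 16 h 1 of the 9 rose and 5 fell, and at 16 h 3 were higher and 5 lower than without hCG. Leukocyte markers (16) summed to between 4430 and 4620, 3960 and 4120, and 10200 in both arrays at 16 h. Of 15 tested, 12 rose from 8 h to 16 h, and Ptprc, which defines leukocytes, was under the dim limit in both earlier groups. Laptm5 was the brightest of these markers without hCG and at 8 h (means 11.47 and 11.11). It weighs most in the sums of those groups and was not called in any comparison. Oviduct epithelium markers (8) summed to between 3060 and 3410, 1860 and 1940, and 9240 and 10900, with Foxj1 and Pax8 under the limit in every group. Theca and stroma markers (9 of 10 with a probe set) summed to between 3320 and 3630, 1600 and 2220, and 1020 and 1060. Endothelium markers (6) summed to between 283 and 308, 548 and 645, and 636 and 641, with Pecam1, Tek, Tie1 and Emcn under the limit in every group. Of these 6 only 2, Cdh5 and Kdr, were tested. Cdh5 was called higher at both later times against no hCG (mean 5.48 without hCG, under the limit, and 8.34 at 8 h). Kdr was called higher at 16 h against no hCG alone (0.49 ± 0.15, adjusted p = 0.0244). Erythrocyte markers (4 of 7 with a probe set) summed to between 426 and 465, 327 and 339, and 345 and 529, and Hba-a1 was under the limit throughout. Has2, the hyaluronan synthase of cumulus expansion, read 5.78 and 5.67 without hCG, 9.01 and 8.92 at 8 h, and 7.07 and 7.05 at 16 h. The part of these shifts in the results below was not tested.

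At 8 h after hCG, the hexokinase genes Hk1 and Hk2 and above all the regulatory gene Pfkfb4 were higher than without hCG. All 3 phosphofructokinase genes, all 4 lactate genes and the kinase gene Pdk1 were lower. Of the 31 tested genes 7 rose, or 22.6%, against 16.9% of all 13559 genes tested, and 11 fell, or 35.5%, against 20.5%. The median change was −0.24, against −0.02 over all genes. The count of rises was 4 without no-hCG replicate 1 and 4 without 8 h replicate 2. From 8 h to 16 h, the second interval, most of the genes that had fallen rose. In all, 14 rose, or 45.2%, against 11.8% of all genes, and 2 fell, or 6.45%, against 9.12%. The median change was 0.40, against 0.01 over all genes. Leaving out either 8 h array gave 9 rises, and leaving out replicate 1 or 2 of the 16 h group gave 8 or 9. In each of these settings with 1 array left out, rises over all probe sets were also fewer, with ranges given below. Both comparisons use the same 8 h arrays, so the fall and the rise are not independent of each other. At 16 h compared with no hCG, 10 genes were higher, or 32.3%, against 20.8% of all genes, and 4 were lower, or 12.9%, against 20.8%. The members were chosen with earlier results of these data known, so these shares are not an independent contrast with all genes. The tested genes Slc2a3 and Eno2 passed the filter through the groups in which they were high, since another group's mean was under the limit. Without them, 6 of 29 rose and 11 fell at 8 h, 13 rose and 2 fell from 8 h to 16 h, and 8 were higher and 4 lower at 16 h than without hCG.

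**Figure D1:**
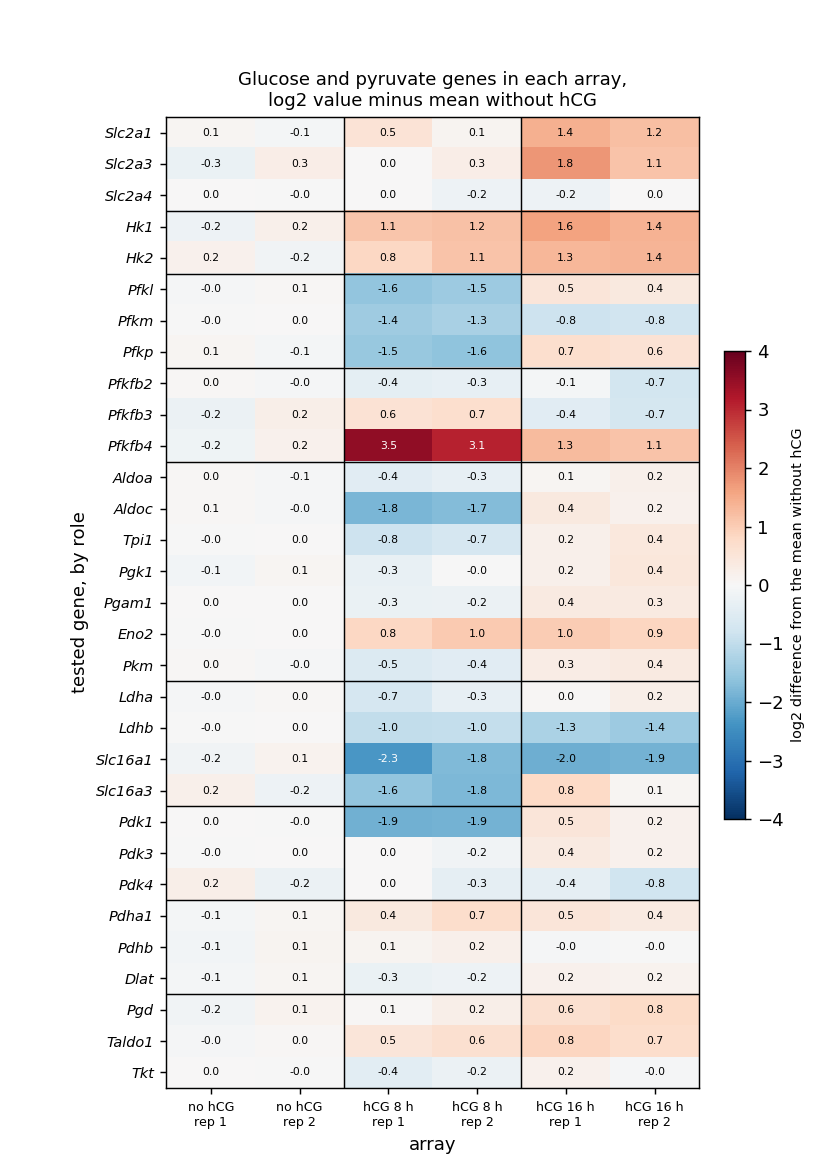
Heat map of the 31 tested genes (rows, by role) in the 6 arrays (columns); each cell is the array's log2 value minus the gene's mean over both arrays without hCG. A reader should see the blue 8 h columns of Pfkl, Pfkp, Aldoc, Slc16a3 and Pdk1 between paler columns on either side, the red 8 h cells of Pfkfb4, and the cells of Slc16a1 and Ldhb that are blue at both later times.

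**Figure D2:**
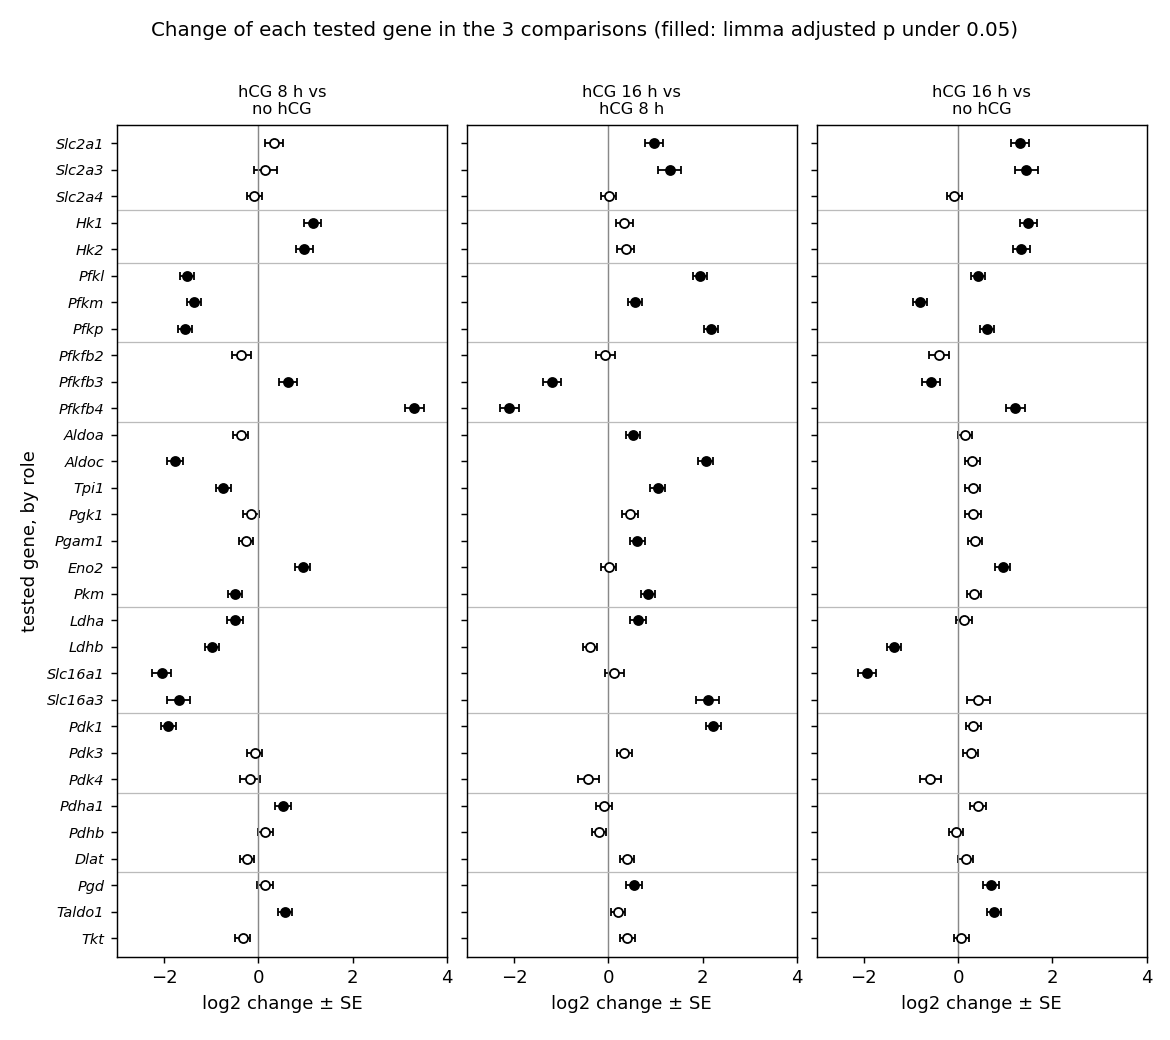
Log2 change ± SE of each of the 31 tested genes in the 3 comparisons (n = 2 arrays per group); filled points had a limma adjusted p under 0.05. At 8 h against no hCG 7 filled points lie to the right of 0 and 11 to the left, and from 8 h to 16 h 14 lie to the right and 2 to the left.

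The facilitative glucose transporter gene Slc2a1, the main basal transporter of many tissues, was higher late. Its values were 10.39 and 10.22 without hCG, 10.85 and 10.43 at 8 h, and 11.73 and 11.50 at 16 h. Both 16 h arrays were above all others. The change at 8 h was 0.34 ± 0.19 (adjusted p = 0.207), and from 8 h to 16 h it rose by 0.97 ± 0.19 (adjusted p = 0.0057), with all 3 of its probe sets called upward in that interval. That call was lost without 8 h replicate 2 (adjusted p = 0.0654) and without 16 h replicate 1 (0.0694), with 0.000529 to 0.0694 over the alternatives. Against no hCG it was higher by 1.31 ± 0.19 at 16 h (adjusted p = 0.000412), and this call held in all alternatives run. Slc2a3, a high-affinity transporter known from neurons and leukocytes, read 5.11 and 5.67, then 5.42 and 5.65, then 7.14 and 6.53. Its mean was under the dim limit without hCG (5.39) and at 8 h (5.54), so it passed the filter through the 16 h group. It rose by 1.30 ± 0.24 from 8 h to 16 h (adjusted p = 0.00512), the interval in which leukocyte markers rose too. The size of that rise in Slc2a3 is not settled. Its 2 tested probe sets have names ending in _s_at or _x_at, which mark probes shared with other genes. The values of Slc2a3 may therefore include other transcripts. Another 2 of its probe sets, under the limit and without such names, stayed between 4.27 and 5.06 in all arrays. Slc2a4, the insulin-regulated transporter, lay between 7.35 and 7.57 in every array and was not called in any comparison.

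The hexokinases trap glucose in the cell as glucose phosphate, and both tested genes rose early. Hk1 read 8.41 and 8.80 without hCG, 9.72 and 9.78 at 8 h, and 10.20 and 9.98 at 16 h. Hk2, the inducible form, read 10.83 and 10.52, then 11.49 and 11.81, then 12 and 12.03. In both genes the arrays without hCG were below every later array. Hk1 rose by 1.15 ± 0.18 (adjusted p = 0.000804) and Hk2 by 0.97 ± 0.18 (adjusted p = 0.00216) at 8 h. In the interval from 8 h to 16 h the changes were 0.34 ± 0.18 and 0.37 ± 0.18 and were not called. At 16 h they stood 1.49 ± 0.18 and 1.34 ± 0.18 above the level without hCG. The second Hk1 probe set had the same calls.

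Phosphofructokinase, which commits sugar phosphate to glycolysis, is made from liver (Pfkl), muscle (Pfkm) and platelet (Pfkp) type subunits, and all 3 genes fell at 8 h. Pfkl read 12.21 and 12.31 without hCG, 10.68 and 10.80 at 8 h, and 12.73 and 12.65 at 16 h. Pfkp read 11.51 and 11.35, then 9.91 and 9.83, then 12.10 and 12. Pfkm read 10.35 and 10.37, then 8.93 and 9.05, then 9.52 and 9.60. For each of these genes no array of one group overlapped another group. The falls at 8 h were −1.52 ± 0.15 for Pfkl (adjusted p = 4.74e-05), −1.56 ± 0.15 for Pfkp (4.35e-05) and −1.37 ± 0.15 for Pfkm (8.48e-05). Between 8 h and 16 h Pfkl rose by 1.95 ± 0.15 and Pfkp by 2.18 ± 0.15, so that both ended above the level without hCG, by 0.43 ± 0.15 (adjusted p = 0.0478) and 0.62 ± 0.15 (adjusted p = 0.0102). Pfkm rose by 0.57 ± 0.15 (adjusted p = 0.0258) and stayed 0.80 ± 0.15 below that level at 16 h (adjusted p = 0.00217).

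Not all probe sets of these subunits moved alike. For Pfkl, 2 of 3 were called at 8 h and again from 8 h to 16 h. The third was dimmer and had changes of −0.71 and 0.37 that were not called. Names ending in _a_at mark probes for several transcripts of 1 gene, and those in _s_at or _x_at probes shared with other genes. Without all 3 kinds the dimmer probe set was the one left for Pfkl, and the fall and the rise of Pfkl lost their calls (adjusted p = 0.0698 and 0.446), and its 16 h value against no hCG turned to −0.33 (adjusted p = 0.391, with 0.0201 to 0.391 over the alternatives). The excess of Pfkl at 16 h over no hCG also lost its call without any 1 of the 6 arrays (adjusted p between 0.0579 and 0.171). Without _s_at and _x_at probe sets alone, a setting chosen after seeing the data, all 3 Pfkl calls held. A dimmer Pfkp probe set was not called at 8 h (−0.62, adjusted p = 0.249) and rose by 1.71 from 8 h to 16 h. The late Pfkp rise over no hCG lost its call without 16 h replicate 1 (adjusted p = 0.0661, with 0.00409 to 0.0661 over the alternatives). The rise of Pfkm from 8 h to 16 h lost its call without any 1 of the 8 h or 16 h arrays (adjusted p between 0.0881 and 0.211, with 0.0111 to 0.211 over the alternatives).

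The Pfkfb genes encode enzymes that make and break the small sugar phosphate which activates phosphofructokinase, and Pfkfb4 and Pfkfb3 rose at 8 h and fell afterwards. Pfkfb4 read 7.32 and 7.66 without hCG, 11.03 and 10.58 at 8 h, and 8.77 and 8.63 at 16 h. All 3 groups were apart. Its rise at 8 h, 3.31 ± 0.20 or 9.94-fold (adjusted p = 2.56e-06), had the greatest size among the 31 tested genes in any of the 3 comparisons. It then fell by 2.10 ± 0.20 (adjusted p = 9.95e-05) and remained 1.21 ± 0.20 above the level without hCG (adjusted p = 0.00099). Pfkfb3, whose product mainly makes the activator, read 9.19 and 9.65, then 10 and 10.10, then 8.98 and 8.71. Its rise at 8 h was 0.63 ± 0.19 (adjusted p = 0.0289). That call was lost without no-hCG replicate 1 (adjusted p = 0.147) and without either 8 h array (0.0904 and 0.152), with 0.00531 to 0.152 over the alternatives. In the second interval Pfkfb3 fell by 1.20 ± 0.19 (adjusted p = 0.00197). It was 0.57 ± 0.19 lower at 16 h than without hCG (adjusted p = 0.04), a call lost in 9 of 16 alternatives, including each 8 h and 16 h array and no-hCG replicate 2 left out (adjusted p between 0.0639 and 0.224, with 0.00802 to 0.224 over the alternatives). Its second, dimmer probe set lay between 6.76 and 7.07 throughout and was not called. Pfkfb2 lay between 6.52 and 7.31 and was not called, except at 16 h against no hCG without 16 h replicate 1 (−0.74, adjusted p = 0.0232, with 0.0232 to 0.768 over the alternatives).

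The enzymes between the aldolase step and pyruvate include very abundant housekeeping transcripts, and Aldoc, the brain-type aldolase, changed most among those tested. It read 9.48 and 9.38, then 7.61 and 7.70, then 9.83 and 9.61. It fell by 1.77 ± 0.16 (adjusted p = 2.39e-05) and rose by 2.07 ± 0.16 (adjusted p = 3.01e-05), and no 8 h array overlapped the other groups. Tpi1, the triose phosphate isomerase, read 13.85 and 13.90, then 13.04 and 13.21, then 14.08 and 14.29. It fell by 0.75 ± 0.16 (adjusted p = 0.00485) and rose by 1.05 ± 0.16 (adjusted p = 0.00142), with all 3 probe sets called in both intervals. Its fall lost its call without 8 h replicate 1 (adjusted p = 0.0562, with 0.000692 to 0.0562 over the alternatives). Pkm, the pyruvate kinase that makes pyruvate, changed by −0.49 ± 0.15 at 8 h (adjusted p = 0.0283) and by 0.84 ± 0.15 from 8 h to 16 h (adjusted p = 0.00374). Its fall lost its call without no-hCG replicate 1 (adjusted p = 0.0837) and without either 8 h array (0.178 and 0.11), with 0.00674 to 0.178 over the alternatives.

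Of the remaining genes of these steps, Aldoa and Pgam1 were called from 8 h to 16 h alone and Eno2 at both times against no hCG. Aldoa, the muscle-type aldolase, changed by −0.38 ± 0.15 at 8 h (adjusted p = 0.084) and by 0.53 ± 0.15 in the second interval (adjusted p = 0.0387), in which 3 of its 5 probe sets were called. Pgam1, the phosphoglycerate mutase, changed by −0.26 ± 0.15 (adjusted p = 0.215) and then rose by 0.62 ± 0.15 (adjusted p = 0.0161). These late calls of Aldoa and Pgam1 were each lost without any 1 of the 8 h or 16 h arrays, with adjusted p-values from 0.103 to 0.259 for Aldoa and from 0.0774 to 0.131 for Pgam1. Over all alternatives they ranged from 0.00849 to 0.259 and from 0.00362 to 0.131. Pgk1, the phosphoglycerate kinase, was not called in any comparison. Its change from 8 h to 16 h, 0.47 ± 0.17 (adjusted p = 0.096), was called with the replicate number as a block (0.0441) and with an intensity trend and robust prior (0.0398), with 0.0398 to 0.524 over the alternatives. Eno2, the neuronal enolase, was dim and went the other way, from 5.30 and 5.32 to 6.14 and 6.35 at 8 h and 6.34 and 6.17 at 16 h, a rise of 0.94 ± 0.16 at 8 h (adjusted p = 0.00132). Its mean without hCG, 5.31, was under the dim limit, and it passed the filter through the later groups. The size of its rise is therefore not settled. All 5 probe sets of Aldoa have _x_at names, so its values may include related transcripts.

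The lactate genes parted after 8 h. Slc16a1, the widely expressed transporter of lactate and pyruvate, read 12.27 and 12.56 without hCG, 10.09 and 10.64 at 8 h, and 10.46 and 10.52 at 16 h. Slc16a3, the low-affinity exporter typical of strongly glycolytic cells, read 9.47 and 9.09, then 7.71 and 7.49, then 10.08 and 9.35. Slc16a1 was lower in all 4 arrays after hCG, whereas Slc16a3 was low at 8 h alone and its 16 h arrays overlapped those without hCG. Slc16a1 fell by 2.05 ± 0.20, or 4.15-fold (adjusted p = 4.66e-05), and its further change to 16 h was 0.13 ± 0.20 (adjusted p = 0.769). Slc16a3 fell by 1.69 ± 0.24 (adjusted p = 0.000524) and rose by 2.11 ± 0.24 (adjusted p = 0.00032). The replicates of Slc16a3 at 16 h differed by more than those of most members, with an SD of 0.52. Without 16 h replicate 2, Slc16a3 was called higher at 16 h than without hCG (0.79, adjusted p = 0.0432, with 0.0432 to 0.878 over the alternatives).

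The lactate dehydrogenase genes differed as well. Ldhb, whose subunit prevails in oxidative tissues and in the mouse oocyte, read 13.83 and 13.85, then 12.84 and 12.88, then 12.57 and 12.39. It fell by 0.98 ± 0.15 at 8 h (adjusted p = 0.00077), was called in all 4 probe sets there, and at 16 h stood 1.36 ± 0.15 below the level without hCG (adjusted p = 8.39e-05). In the interval from 8 h to 16 h 1 of its 4 probe sets was called. Against no hCG 16 of 16 tested oocyte markers were lower at each later time, whereas from 8 h to 16 h 5 rose and 6 fell. The part of this in the Ldhb changes was not tested. Ldha, the form that prevails in glycolytic tissue, read 13.89 and 13.97, then 13.27 and 13.59, then 13.97 and 14.16. Its fall at 8 h was 0.50 ± 0.17 on the log2 scale (adjusted p = 0.0456) and its later rise 0.63 ± 0.17 (adjusted p = 0.0288). The Ldha fall was lost in 9 of 15 alternatives, with every 1 of the 6 arrays left out in turn among them (adjusted p between 0.0569 and 0.334), with 0.0104 to 0.334 over the alternatives. The rise was lost without 8 h replicate 1 (adjusted p = 0.27) and without either 16 h array (0.0815 and 0.173), with 0.00733 to 0.27 over the alternatives.

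**Figure D3:**
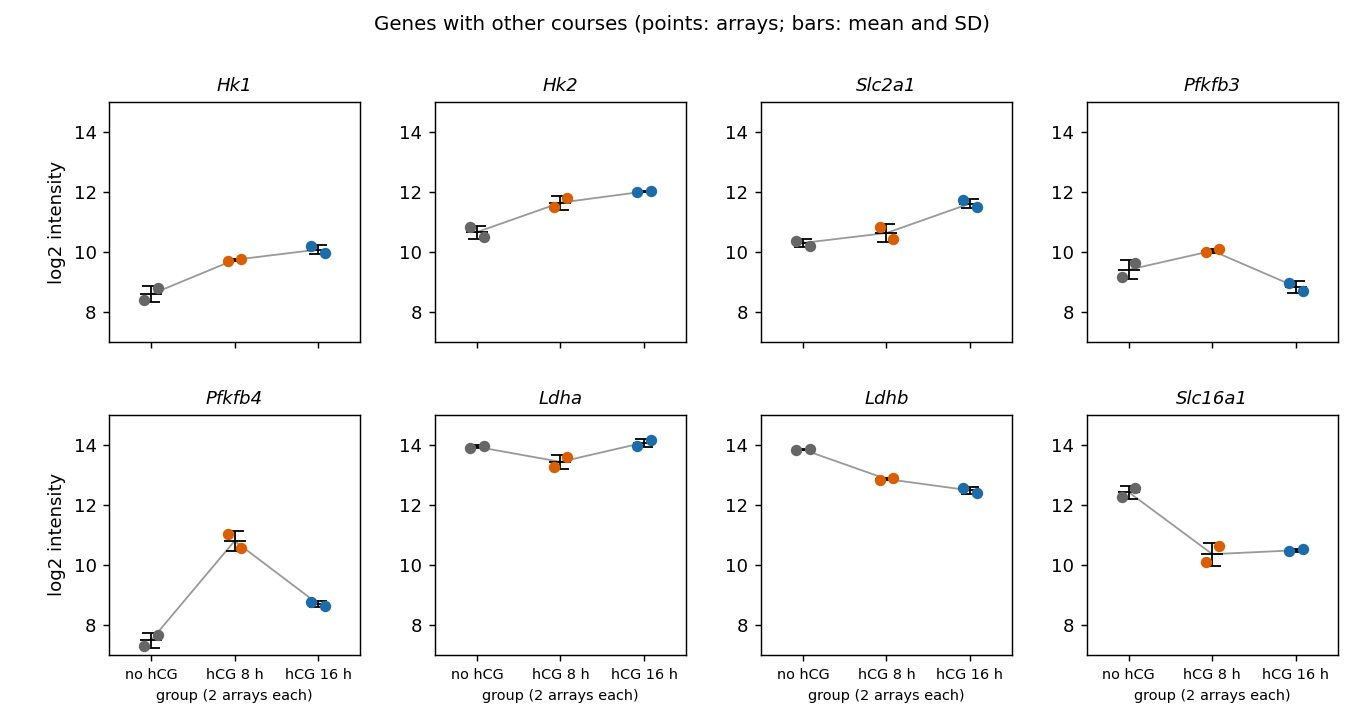
Log2 intensity of 8 genes in each array (points), with the group mean and SD (bars, n = 2); all panels share one axis, and levels are not comparable between genes. Pfkfb4 peaks at 8 h with 11.03 and 10.58, Slc16a1 and Ldhb stay low after hCG, Hk1 and Hk2 stay high, and Slc2a1 is highest at 16 h.

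At the entry of pyruvate into mitochondria, the kinase gene Pdk1 changed most. Its product phosphorylates and so inactivates pyruvate dehydrogenase. It read 10.57 and 10.51 without hCG, 8.61 and 8.64 at 8 h, and 11.02 and 10.70 at 16 h. The 8 h arrays lay below all others. Pdk1 fell by 1.91 ± 0.16, or 3.76-fold (adjusted p = 1.97e-05), and rose by 2.23 ± 0.16, or 4.70-fold (adjusted p = 2.44e-05). All 3 tested probe sets were called in both intervals, with log2 rises from 8 h to 16 h between 2.23 and 2.73. At 16 h against no hCG 1 of the 3 was called, higher by 0.57 (adjusted p = 0.0281), and the brightest was not (0.32 ± 0.16, adjusted p = 0.16). The other 2 tested kinase genes were not called: Pdk3 lay between 9.65 and 10.16, and Pdk4, a kinase known from fasting, between 8.31 and 9.36. Pdk4 at 16 h against no hCG had a change of −0.59 ± 0.22 (adjusted p = 0.0656), and was called with the replicate number as a block (adjusted p = 0.00966) and without no-hCG replicate 2 (0.0165), with 0.00966 to 0.362 over the alternatives.

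Of the complex itself, 1 of 3 tested genes was called. Pdha1, its catalytic alpha subunit, read 9.76 and 9.93, then 10.23 and 10.53, then 10.33 and 10.21, and rose by 0.53 ± 0.17 at 8 h (adjusted p = 0.0338). That call was lost in 5 of 16 alternatives, among them replicate 2 of the 8 h group left out (adjusted p = 0.279), no-hCG replicate 1 left out (0.113) and either 16 h array left out (0.0552 and 0.0551), with 0.0104 to 0.279 over the alternatives. Pdhb, the beta subunit, lay between 11.78 and 12.08 and Dlat, the acetyl transferase subunit, between 9.53 and 9.97. Neither was called in any comparison, although a dimmer second Pdhb probe set was lower at 16 h than without hCG (−0.81, adjusted p = 0.0358), and 1 of 2 Pdha1 probe sets was higher there.

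In the pentose phosphate branch Pgd and Taldo1 rose and Tkt was not called. Pgd, the phosphogluconate dehydrogenase of the NADPH-forming part, read 11.90 and 12.20, then 12.11 and 12.27, then 12.68 and 12.80. Both 16 h arrays were above the rest, and the difference from no hCG was 0.69 ± 0.17 (adjusted p = 0.00887). That call was lost without 16 h replicate 2 (adjusted p = 0.065, with 0.00267 to 0.065 over the alternatives). Between 8 h and 16 h 3 of 4 Pgd probe sets were called, and the brightest rose by 0.55 ± 0.17 (adjusted p = 0.0483). That call was lost without any 1 of the 8 h and 16 h arrays (adjusted p between 0.13 and 0.302, with 0.0196 to 0.302 over the alternatives). Taldo1, the transaldolase of the part that returns sugars to glycolysis, read 11.92 and 12, then 12.44 and 12.60, then 12.81 and 12.65. It rose by 0.56 ± 0.15 at 8 h (adjusted p = 0.019) and was 0.77 ± 0.15 above the level without hCG at 16 h (adjusted p = 0.00338). The 8 h call of Taldo1 was lost without no-hCG replicate 1 (adjusted p = 0.0564) and without either 8 h array (0.0623 and 0.159), with 0.00565 to 0.159 over the alternatives. Tkt, the transketolase, was not called in its brightest probe set, while a dimmer one of 3 fell by 0.65 at 8 h (adjusted p = 0.0173) and was lower at 16 h than without hCG (−0.74, adjusted p = 0.00866). The 8 h change of the brightest, −0.33 ± 0.16 (adjusted p = 0.145), was called with quantile normalization (−0.45, 0.0452) and when its probe sets were averaged (−0.43, 0.041), with 0.041 to 0.521 over the alternatives.

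**Figure D4:**
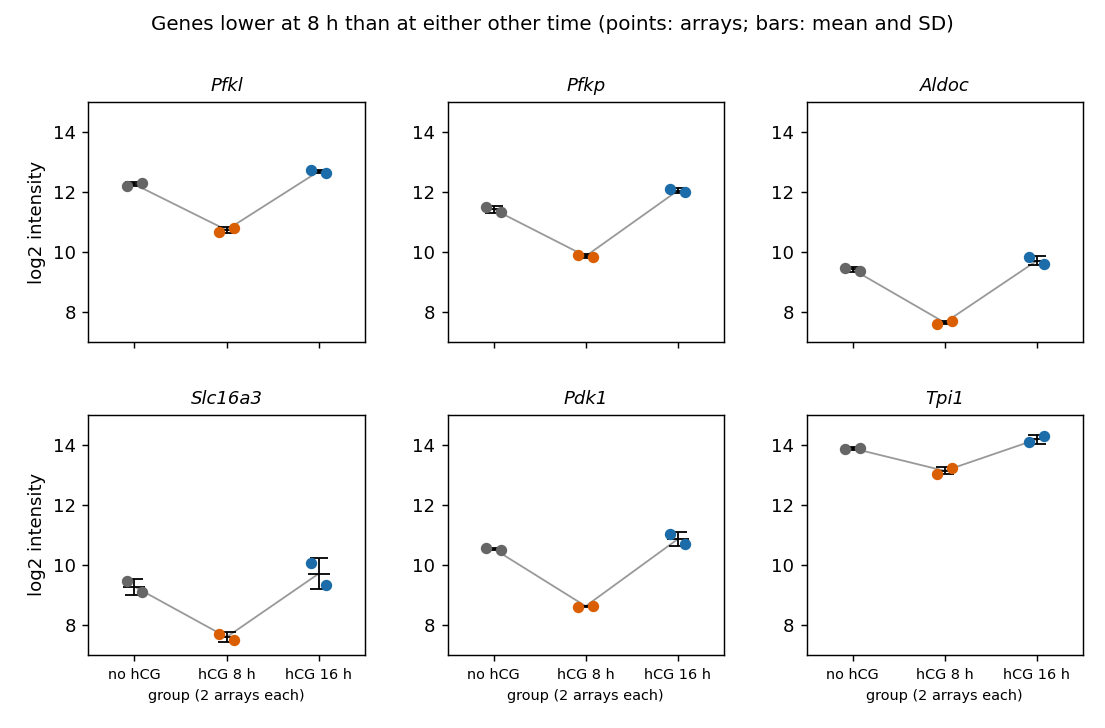
Log2 intensity of 6 genes in each array (points), with the group mean and SD (bars, n = 2); all panels share one axis, and levels are not comparable between genes. In every panel both 8 h arrays lie below the arrays without hCG and at 16 h, from a drop of 0.75 in Tpi1 to one of 1.91 in Pdk1.

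The genes with a change of at least 1 on the log2 scale in both intervals were Pfkl, Pfkp, Aldoc, Slc16a3 and Pdk1, which fell and rose, and Pfkfb4, which rose and fell. Their promoters are shown with that of Slc16a1, which fell and stayed low, since these genes carry the contrast between courses. Each sequence is the 250 bases before the gene's first listed start site, 5′ to 3′ on the gene's strand, from RefSeq on GRCm38.p6. Capitals mark ACGTG or GCGTG on either strand, the core letters of a hypoxia response element.
Pfkl, chr10:78009808-78010057, minus strand: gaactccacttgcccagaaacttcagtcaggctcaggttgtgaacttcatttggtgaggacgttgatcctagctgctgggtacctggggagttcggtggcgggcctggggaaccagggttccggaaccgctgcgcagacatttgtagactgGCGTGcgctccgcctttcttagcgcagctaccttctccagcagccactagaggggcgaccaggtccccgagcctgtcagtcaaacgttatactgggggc
Pfkp, chr13:6648772-6649021, minus strand: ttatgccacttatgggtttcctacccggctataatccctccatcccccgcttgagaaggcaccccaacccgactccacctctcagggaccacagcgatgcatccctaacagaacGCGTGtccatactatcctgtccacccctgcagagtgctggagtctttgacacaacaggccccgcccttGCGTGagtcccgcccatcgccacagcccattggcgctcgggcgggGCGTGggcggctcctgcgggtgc
Aldoc, chr11:78322823-78323072, plus strand: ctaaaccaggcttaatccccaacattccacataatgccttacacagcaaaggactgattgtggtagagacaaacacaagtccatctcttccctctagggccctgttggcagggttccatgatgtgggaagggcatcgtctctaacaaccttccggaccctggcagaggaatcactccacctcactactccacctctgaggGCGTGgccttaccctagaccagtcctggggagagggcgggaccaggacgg
Slc16a3, chr11:120948817-120949066, plus strand: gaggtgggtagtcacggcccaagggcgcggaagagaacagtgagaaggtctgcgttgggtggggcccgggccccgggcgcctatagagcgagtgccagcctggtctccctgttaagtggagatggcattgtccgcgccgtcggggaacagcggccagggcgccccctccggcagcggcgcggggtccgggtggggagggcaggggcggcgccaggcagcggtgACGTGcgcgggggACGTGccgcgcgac
Pdk1, chr2:71872974-71873223, plus strand: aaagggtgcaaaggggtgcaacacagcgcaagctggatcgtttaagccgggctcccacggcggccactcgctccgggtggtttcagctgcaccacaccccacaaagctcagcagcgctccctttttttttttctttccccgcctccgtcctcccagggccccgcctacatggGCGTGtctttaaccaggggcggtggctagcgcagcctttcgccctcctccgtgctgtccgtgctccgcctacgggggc
Pfkfb4, chr9:108991652-108991901, plus strand: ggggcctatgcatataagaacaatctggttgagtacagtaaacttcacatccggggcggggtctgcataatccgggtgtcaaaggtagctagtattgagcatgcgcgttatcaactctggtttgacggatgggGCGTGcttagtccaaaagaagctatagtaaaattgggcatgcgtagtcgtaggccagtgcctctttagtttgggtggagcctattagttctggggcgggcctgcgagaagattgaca
Slc16a1, chr3:104638414-104638663, plus strand: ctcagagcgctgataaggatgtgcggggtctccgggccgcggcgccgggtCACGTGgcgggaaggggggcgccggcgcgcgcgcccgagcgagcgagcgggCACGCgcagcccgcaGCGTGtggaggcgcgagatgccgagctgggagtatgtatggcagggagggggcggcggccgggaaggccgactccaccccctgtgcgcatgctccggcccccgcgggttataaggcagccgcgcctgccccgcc

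All 7 promoters hold at least 1 such match. Slc16a3 has 2 of ACGTG close to the start, Pfkp has 3 of GCGTG, and Slc16a1 has the palindrome CACGTG, which counts as ACGTG on both strands, with 2 matches of GCGTG. For the 35 members with a listed promoter, the first listed start was used. Of these, 27, or 77.1%, held ACGTG or GCGTG, against 38.6% of 27025 genes, and 13, or 37.1%, held ACGTG, against 16.6%. The E-box CACGTG was in 5 members, or 14.3%, against 6.05%, and the cAMP response palindrome TGACGTCA in 1, Ldha, or 2.86%, against 1.62%. Member promoters were richer in G and C, with a median of 61.2% against 52%, and the part of this in the counts was not tested. A match is a run of letters, and no binding was measured here.

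Within an array, the log2 difference between related genes shows whether they moved unequally, although not which has the higher level. Of 10 pairs listed, 8 had both genes tested, which gave 24 differences over the 3 comparisons. With 2 arrays against 2, an exact permutation test, two-sided, cannot go below p = 0.333 (adjusted p = 0.533), so these are descriptions. The Pfkfb3 minus Pfkfb4 difference changed by −2.68 at 8 h and by 0.90 from 8 h to 16 h. The Slc16a1 minus Slc16a3 difference changed by −0.37 at 8 h, where the arrays overlapped, and by −1.99 from 8 h to 16 h, where they did not. Ldha minus Ldhb changed by 0.48 and then by 1.01, with the groups apart each time. Aldoa minus Aldoc changed by 1.39 and then by −1.54, and Pdk1 minus Pdk4 by −1.73 and then by 2.65, also with the groups apart. The Hk1 minus Hk2 and Slc2a1 minus Slc2a3 differences overlapped between groups in every comparison, with changes between −0.33 and 0.19. Slc2a3 was under the dim limit on the mean without hCG and at 8 h, so its pair does not show whether both transporters moved alike.

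Among 21 tested relatives of the glycolytic and lactate genes, 1 rose at 8 h, or 4.76%, against 16.9% of all genes. Another 5 fell, or 23.8%, against 20.5%. From 8 h to 16 h 1 rose and 1 fell, or 4.76% each, against 11.8% and 9.12%. Bpgm, which makes bisphosphoglycerate from a glycolytic intermediate, read 11.90 and 11.94, then 10.23 and 10.61, then 11.66 and 11.51. It fell by 1.5 ± 0.17 (adjusted p = 0.000123) and rose by 1.17 ± 0.17 (adjusted p = 0.00135). The enolase gene Eno3 and the germ-cell lactate dehydrogenase gene Ldhc fell by 0.97 ± 0.16 and 0.91 ± 0.15 at 8 h. Ldhc was under the dim limit at 8 h and 16 h (means 5.53 and 5.51) and passed the filter through the group without hCG, so the size of its fall is not settled. The D-lactate dehydrogenase gene Ldhd rose by 1.09 ± 0.17 and then fell by 0.70 ± 0.17. At 16 h 1 of the 21, or 4.76%, was higher than without hCG, against 20.8% of all genes. It was the inositol transporter gene Slc2a13 (1.07 ± 0.21). The 4 lower ones, or 19%, against 20.8%, included Adpgk (−1.03 ± 0.19), Ldhc (−0.92 ± 0.15) and Tigar (−0.67 ± 0.17).

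Of 12 other genes of pyruvate entry and the pentose phosphate branch, 1 rose at 8 h, or 8.33%, and 2 fell, or 16.7%. Over all genes these shares were 16.9% and 20.5%. H6pd, the glucose phosphate dehydrogenase of the endoplasmic reticulum, rose by 1.05 ± 0.15, and Pgls, the lactonase of the cytosolic branch, and Pcx, pyruvate carboxylase, fell by 1.25 ± 0.19 and 0.76 ± 0.15. In the second interval Mpc1, a subunit of the mitochondrial pyruvate carrier, rose by 0.66 ± 0.17, and Dld, the dihydrolipoamide dehydrogenase, fell by 0.55 ± 0.17. At 16 h 2 of the 12, or 16.7%, against 20.8% of all genes, were higher than without hCG, H6pd (1.03 ± 0.15) and Mpc1 (0.59 ± 0.17). The 3 lower ones, or 25%, against 20.8%, were Pgls (−0.86 ± 0.19), Pdhx (−0.74 ± 0.17), which anchors a subunit of the complex, and Pcx (−0.51 ± 0.15).

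Genes of the tricarboxylic acid cycle, which burns the acetyl units made from pyruvate, fell about as often as other genes at 8 h. Of 17 tested, 3 fell, or 17.6%, against 20.5% of all genes, Suclg2 (−1 ± 0.19), Idh2 (−0.86 ± 0.16) and Fh1 (−0.76 ± 0.16). There 0 of the 17 rose, against 16.9% of all genes. In the interval from 8 h to 16 h 0 of 17 were called by limma, with changes between −0.36 and 0.38. Over all genes 11.8% rose and 9.12% fell there. At an unadjusted p under 0.05, 1 of the 17 was higher and 1 lower in that interval. At 16 h 0 were higher than without hCG, against 20.8% of all genes, and 4 were lower, or 23.5%, against 20.8%. The lower ones included Fh1 (−0.75 ± 0.16), Idh2 (−0.74 ± 0.16) and Suclg2 (−0.73 ± 0.19). The median change of the list was 0.02 at 8 h and −0.07 in the second interval, beside −0.24 and 0.40 for the members.

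Of 18 regulators of glucose metabolism, 4 rose at 8 h, or 22.2%, against 16.9% of all genes, and 5 fell, or 27.8%, against 20.5%. From 8 h to 16 h 2 rose, or 11.1%, against 11.8%, and 1 fell, or 5.56%, against 9.12%. The fall was that of Epas1, a hypoxia-inducible factor gene, with 12.56 and 12.59 without hCG, 13.37 and 13.53 at 8 h, and 9.78 and 10.07 at 16 h. Its change from 8 h to 16 h was −3.53 ± 0.16 (adjusted p = 3.26e-06), after a rise of 0.88 ± 0.16. At 16 h it stood 2.65 ± 0.16 below the level without hCG. Hif1a, another hypoxia-inducible factor gene of this list, read 11.98 and 12.41, then 12.39 and 12.87, then 12.87 and 12.96. Its level at 16 h was 0.72 ± 0.21 above that without hCG (adjusted p = 0.0217), and it was not called in the other comparisons. Myc, a transcription factor known to raise glycolytic genes, read 10.02 and 9.95, then 9.88 and 9.63, then 11.29 and 10.99, and rose by 1.39 ± 0.17 from 8 h to 16 h (adjusted p = 0.000469). Irs1, an adaptor of insulin signalling, fell by 1.44 ± 0.16 at 8 h and rose by 0.78 ± 0.16 afterwards.

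Other regulators changed at 8 h and were not called from 8 h to 16 h. Foxo1, a factor that insulin signalling restrains, fell by 1.80 ± 0.16 and Mlxipl, a glucose-sensing factor, by 1.65 ± 0.21. Prkaa1, a catalytic subunit of the energy sensor AMPK, rose by 1.22 ± 0.37, with replicates without hCG as far apart as 6.42 and 7.76. The insulin receptor gene Insr rose by 0.73 ± 0.20. At 16 h 6 of the 18, or 33.3%, were higher than without hCG, including Prkaa1 (1.65 ± 0.37), Myc (1.16 ± 0.17) and Esrra (1.02 ± 0.19). Another 5 were lower, or 27.8%, and over all genes 20.8% were called in each direction.

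**Figure D5:**
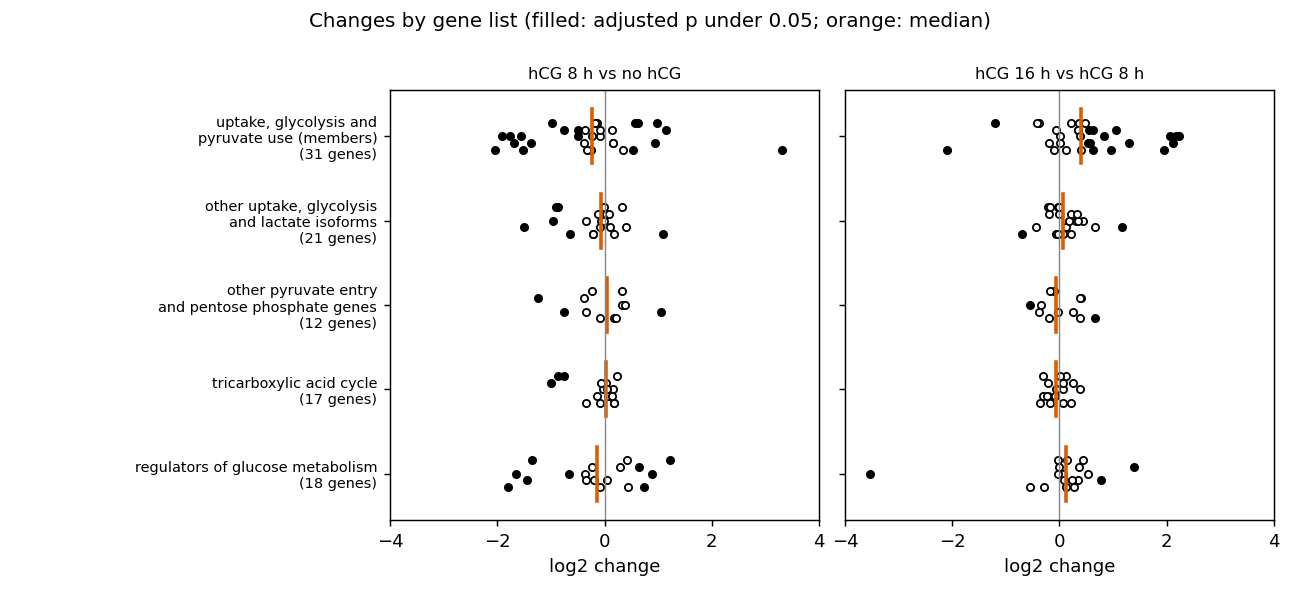
Log2 changes of the 31 members and of 4 lists of related genes (points; filled where the limma adjusted p was under 0.05), with list medians as orange bars, at 8 h against no hCG and from 8 h to 16 h. The members' medians are −0.24 and 0.40, those of the tricarboxylic acid cycle genes 0.02 and −0.07, and the far-left point on the right is Epas1 at −3.53.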

How the data were processed

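The arrays measured biotin-labelled RNA from 6 pools of complexes. The deposited table gives 1 log2 intensity per probe set and array (the scale was read from the values, which run from 3.32 to 15.5); the software, background correction and normalization the authors used are not given in the sources used here. No column belonged to an unlisted sample (0). Array medians ranged from 6.14 to 6.27, and the small number of arrays limits the precision.

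Genes were named from GEO's platform annotation, which gave 1 symbol to 34945 probe sets, several to 932 and none to 9160, besides 64 controls; probe sets with several symbols were not named. Control probe sets and those with a mean under the 40th percentile were left out, and the other 27022 were fitted together in limma 3.58.1 (R 4.3.3; lmFit on group means, eBayes), with Benjamini-Hochberg adjustment over all of them. A gene took the value of its probe set with the highest mean, which gave 13559 genes. The script was tested on simulated data.

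Named were all members with a probe set, with values per array for those called with a log2 change of at least 1, members whose probe sets differed in call, and the 3 largest called changes per direction, comparison and related list. Hif1a, not among these 3, was named beside Epas1. Members and lists were chosen with earlier results of these data known. The alternatives were quantile normalization, median centring, no dim filter or one at the 60th percentile, the mean of a gene's probe sets, no _a_at, _s_at or _x_at probe sets, no _s_at or _x_at probe sets (added after seeing the data), only the 2 groups compared, an intensity trend with robust prior, the replicate number as a block, and each array left out. Promoter sequences came from RefSeq (GRCm38.p6), in which 35 members were found by symbol.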

Additional observations from a re-analysis of the deposited data

How the results depend on the processing

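With 2 arrays per group, 11 of 18 member calls at 8 h against no hCG held in every alternative where the gene was tested. The same was true of 9 of 16 from 8 h to 16 h and 10 of 14 at 16 h against no hCG. Some of these genes were tested in fewer than 16 alternatives: Slc2a3 in 13, Eno2 in 14, and Hk1, Aldoc, Tpi1, Ldhb and Taldo1 in 15. Without probe sets whose names end in _a_at (several transcripts of 1 gene), _s_at or _x_at (shared with other genes), 4 members rose and 6 fell at 8 h, 6 rose from 8 h to 16 h and 4 were higher at 16 h than without hCG, with fewer members tested, and Pfkl at 16 h against no hCG turned to −0.33. Without _s_at and _x_at probe sets alone, chosen after seeing the data, 7 rose and 11 fell at 8 h, 12 rose and 2 fell from 8 h to 16 h, and 9 were higher and 4 lower at 16 h than without hCG. The intensity trend with robust prior also called Aldoa at 8 h (adjusted p = 0.0256), Ldhb and Pgk1 from 8 h to 16 h (0.0476 and 0.0398) and Pgam1 and Pkm at 16 h against no hCG (0.0311 and 0.0367). With 1 array left out, member rises ranged from 4 to 7 and falls from 8 to 10 at 8 h, rises from 8 to 14 and falls from 2 to 2 in the second interval, and at 16 h against no hCG 8 to 9 were higher and 3 to 4 lower. Over all probe sets, the main counts at 8 h were 4429 up and 4738 down, and 2919 to 4963 and 3199 to 4594 with 1 array left out. From 8 h to 16 h they were 2638 and 2284, against 1215 to 3429 and 1175 to 2925. At 16 h against no hCG they were 5128 and 4944, against 3481 to 5569 and 3498 to 4741.

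The change of Aldoa minus Aldoc at 8 h was 1.30 with quantile normalization and 1.44 with the mean of a gene's probe sets. With that mean, Pfkl minus Pfkp changed by −0.59 from 8 h to 16 h and −0.67 at 16 h against no hCG, beside −0.23 and −0.19 in the main fit. Pfkfb3 minus Pfkfb4 changed by 1.48 and −1.44, beside 0.90 and −1.78. That mean takes in the dimmer tested probe sets of Aldoa, Pfkl, Pfkp and Pfkfb3 as well. The cause of the shift with quantile normalization was not tested.

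Replicate numbers are shared between groups without a stated meaning, and replicate differences correlated at 0.47 (8 h and no hCG), 0.13 (16 h and 8 h) and 0 (16 h and no hCG), across probe sets. With the replicate number as a block, 7 members rose and 11 fell at 8 h, 15 rose and 2 fell from 8 h to 16 h, and 10 were higher and 5 lower at 16 h than without hCG. Over all probe sets the block gave 4888 and 5229, 3136 and 2676, and 5623 and 5422. Of 93 member results 91 kept their call, and 2 were called with the block alone, Pgk1 from 8 h to 16 h and Pdk4 at 16 h against no hCG.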
